A study of Xenopus laevis with 18 samples.

Results

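Splicing factor and hnRNP mRNAs were followed through 3 cell fractions of Xenopus laevis oocytes and mature eggs. Members were set by a rule on gene symbols, which was chosen with earlier results of these data known. It covers SF3A and SF3B subunits, SR proteins, snRNP proteins, Prp and Cwc proteins, LSm1 to LSm8, U2AF and SF1. It also covers hnRNP proteins other than hnrnpab, and RBM8A, RBM17, RBM22, RBM25 and RBM39. The rule found 135 transcript rows among 51026 in the authors' table. They carry 82 symbols, 48 of them with both an L and an S copy, because X. laevis keeps a pair of subgenomes. By role they comprise 2 U1 snRNP, 15 U2 snRNP, 13 Sm core, 15 LSm core, 5 3′ splice site recognition, 27 Prp and Cwc, 19 SR, 31 hnRNP and 8 RBM rows. All but 2 of them (prpf8.L and hnrnpul1.L) had enough counts to be tested, which left 133 members among 25938 tested transcripts. The symbol lsm2.S is carried by 3 rows and prpf40b.S by 2, so reads may be divided between such rows, and each is given with its row identifier.

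The study used defolliculated stage VI oocytes, the full-grown cells arrested before maturation, held at 18 °C in oocyte culture medium. Eggs were oocytes matured in the same medium with 2 µM progesterone, the steroid that restarts meiosis. Cells of each stage were separated into cytosol, endoplasmic reticulum (ER) and pellet, and each library was made from RNA of 4 cells. There were 3 libraries in each of the 6 groups, described as biological replicates, and neither the strain nor the mothers are given in the sources used here. Where they came from 1 batch of oocytes, the p-values measure only the spread between these samples.

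Splicing is carried out by the spliceosome, in which U1 snRNP binds the 5′ splice site and U2 snRNP, with SF3A and SF3B, binds the branch point. Each spliceosomal snRNA other than U6 is wrapped by a ring of Sm proteins, whereas U6 carries a ring of LSm proteins, and a related LSm ring in the cytoplasm acts in mRNA decay. SR proteins and hnRNP proteins bind pre-mRNA and steer the choice of splice sites, and many hnRNPs also follow mRNA into the cytoplasm. The full-grown oocyte stores such mRNAs for the embryo, whose own transcription starts only after a series of cleavages.

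As a class these were well-represented maternal mRNAs. Over the 3 fractions of an oocyte, the median member held 5.88 aM (attomolar, the authors' spike-in based concentration). The median member stood at percentile 87.8 of the 18241 transcripts with at least 1 TPM (length-normalised abundance) in every library. The most abundant was the Sm protein transcript snrpd3.L at 36.2 aM, followed by srsf5.S at 33.2, hnrnpdl.S at 32.6, snrpb.S at 28.7 and snrpa.S at 26.7 aM. Summed by role, the hnRNP rows held 243 aM, the Sm rows 175, the SR rows 162 and the Prp and Cwc rows 127 aM. The LSm rows held 85.1 aM, the U2 rows 79.9, the U1 rows 48.4, the RBM rows 45.6 and the 3′ splice site rows 24.3 aM. In the animal and vegetal classes that the authors credit to Sindelka et al., 109 of the 133 tested members were classed animal. This was 82.0% against 41.4% of all tested transcripts. A further 5 were classed extremely animal, 18 had no class, and the only one classed vegetal was lsm4.S. The 18 without a class were 13.5% of members, against 56.3% of all tested transcripts. The animal shares therefore differ mainly in how many rows hold a class. Of all tested transcripts, 1.10% were extremely animal and 0.52% vegetal.

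Libraries held between 23151603 and 37863318 estimated counts, and members took 0.809 to 1.63% of them. Replicates of a group correlated at 0.993 to 0.997 on log2 TPM (length-normalised abundance within a library), and no pair agreed within counting noise. The shallowest library, egg ER replicate 1, stood apart from the other egg ER libraries, with the lowest member percentage, 0.809 against 0.909 and 0.962. The pellet libraries numbered 1 held more RNA, at 12437 and 15013 aM, than the other pellet libraries at 6581 to 8767 aM. Oocyte marker rows summed to 1268 to 2643 TPM in all libraries. Blood marker rows summed to 4.8 to 6.0 TPM in oocyte pellets and 7.3 to 7.6 TPM in egg pellets, and 8 to 13 of the 18 rows were at 0. The globin rows hba1.L, hba1.S, hba3.L and hbd.S were at 0 in every library, and the other globin rows, hba2.L and hbg1.L, did not exceed 0.251 and 0.327 TPM. The highest blood rows were cd74.L, at a mean of 2.21 TPM in oocyte pellets and 3.03 in egg pellets, and epor.L, at 1.75 and 3.08. Follicle cell marker rows summed to 838 to 863 TPM in oocyte pellets and 971 to 1011 TPM in egg pellets, and 1 to 9 of the 33 rows were at 0. Most of that sum came from krt8, krt18 and vim, which oocytes also express. Without those, it was 148 to 169 TPM in oocyte pellets and 173 to 192 TPM in egg pellets. The largest remaining rows were the steroidogenic enzyme rows cyp17a1.L, at a mean of 91.9 TPM in oocyte pellets and 84.8 in egg pellets, and hsd3b1.L, at 14.8 and 58.2. The smooth muscle actin row acta2.L stood at 13.3 and 10.7 TPM, and the granulosa factor row foxl2.S did not exceed 0.964 TPM in any library. Their part in the results was not tested, and in such bulk samples fewer cells of a type cannot be told apart from less RNA per cell.

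Unless another fit or scale is named, the log2 fold changes below come from one edgeR quasi-likelihood fit over the 18 libraries. A call is a Benjamini-Hochberg adjusted p below 0.05 over all tested transcripts. Counts were scaled so that the typical transcript stands near 0, and "higher" or "lower" is meant relative to it. On the spike-in scale the median of all transcripts was itself at -0.81 in oocyte ER, -1.68 in oocyte pellet, -1.80 in egg ER and -1.94 in egg pellet, each against the cytosol of the same stage. On that scale 3, 1, 0 and 0 members were called above the cytosol in these 4 comparisons, as were 2.56%, 3.89%, 0.54% and 3.2% of all transcripts. The authors' percentages, which divide a transcript's concentration among the 3 fractions of a stage, are given beside the fold changes as an absolute view.

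The main pattern was a shift of members towards the pellet at maturation. In oocytes the pellet held a median 13.8% of a member's RNA, against 12.4% for all transcripts. In eggs it held 22.5% of a member's RNA against 12.04% for all transcripts. These medians cover the 130 members and 18241 transcripts with at least 1 TPM in every library. The cytosol share of members moved from 50.2 to 59.3%, against 52.8 to 68.3% for all transcripts, and the ER share from 35.1 to 17.3%, against 33.4 to 18.7%. Leaving out the libraries numbered 1 lowered the egg pellet medians to 17.2% for members and 8.37% for all transcripts. The pellet share of every egg library exceeded that of every oocyte library in 42 of 130 members, against 5.73% of all transcripts, and was below it in 3 members, against 2.94%. The median change was 8.10 percentage points for members and -0.31 for all transcripts.

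**Figure D1:**
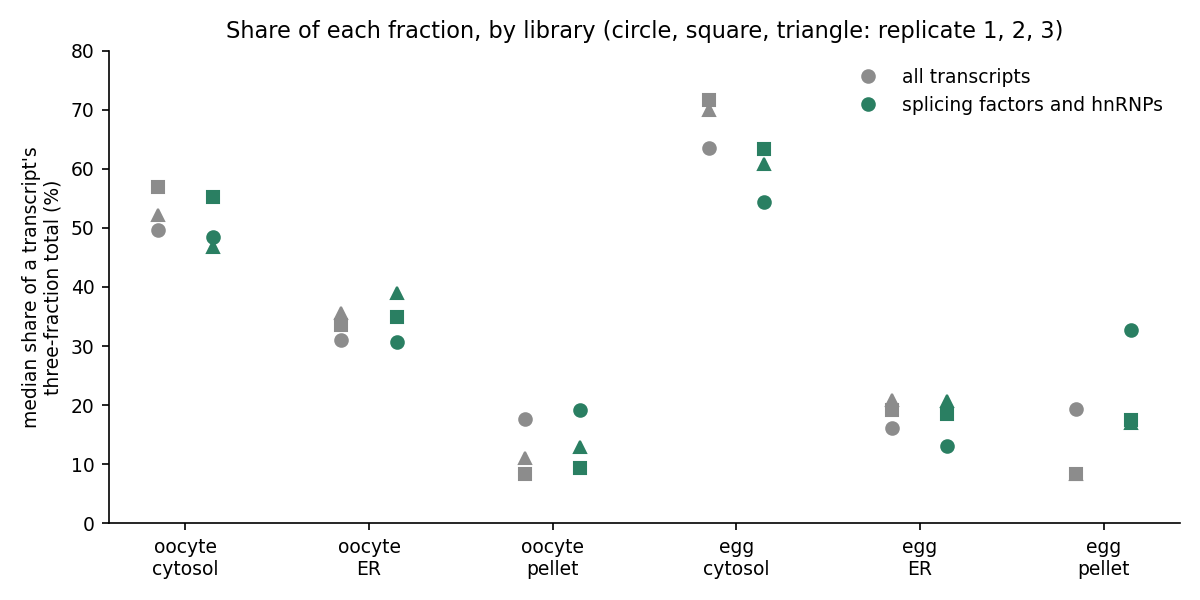
Median share (%) of a transcript's three-fraction total found in each fraction, for the 130 members (green) and all 18241 transcripts (grey) with at least 1 TPM in every library, with 1 symbol per replicate. At both stages the members lie above all transcripts in each pellet library and below them in each cytosol library, and the gaps are wider in eggs.

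The fitted ratios gave the same picture. The pellet to cytosol ratio rose from oocyte to egg for 96 of 133 members, where 23.7% of all transcripts rose, and fell for 14, where 23.4% fell. The median change was 0.66 for members and near 0 for all transcripts. Under spike-in scaling the members' median was 0.42 while that of all transcripts was -0.22, and 30 members rose and 9 fell, where 5.65% and 12.4% of all transcripts did so. With limma on aM values the medians were 0.33 and -0.45, and 12 members rose and 7 fell, where 2.61% and 13.7% of all transcripts did so. Without the pellet libraries numbered 1, 97 members rose and 15 fell, where 22.5% and 22.3% did so. All but 3 of the hnRNP rows rose (27 of 30, none fell), as did 16 of 19 SR rows, 17 of 26 Prp and Cwc rows, 7 of 8 RBM rows, 4 of 5 rows of 3′ splice site recognition and both U1 rows. Of 13 Sm rows 8 rose and 2 fell, of 15 LSm rows 6 rose and 5 fell, and of 15 U2 rows 9 rose and 4 fell. The Sm and U2 falls lie below or near the 23.4% of all transcripts that fell.

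**Figure D2:**
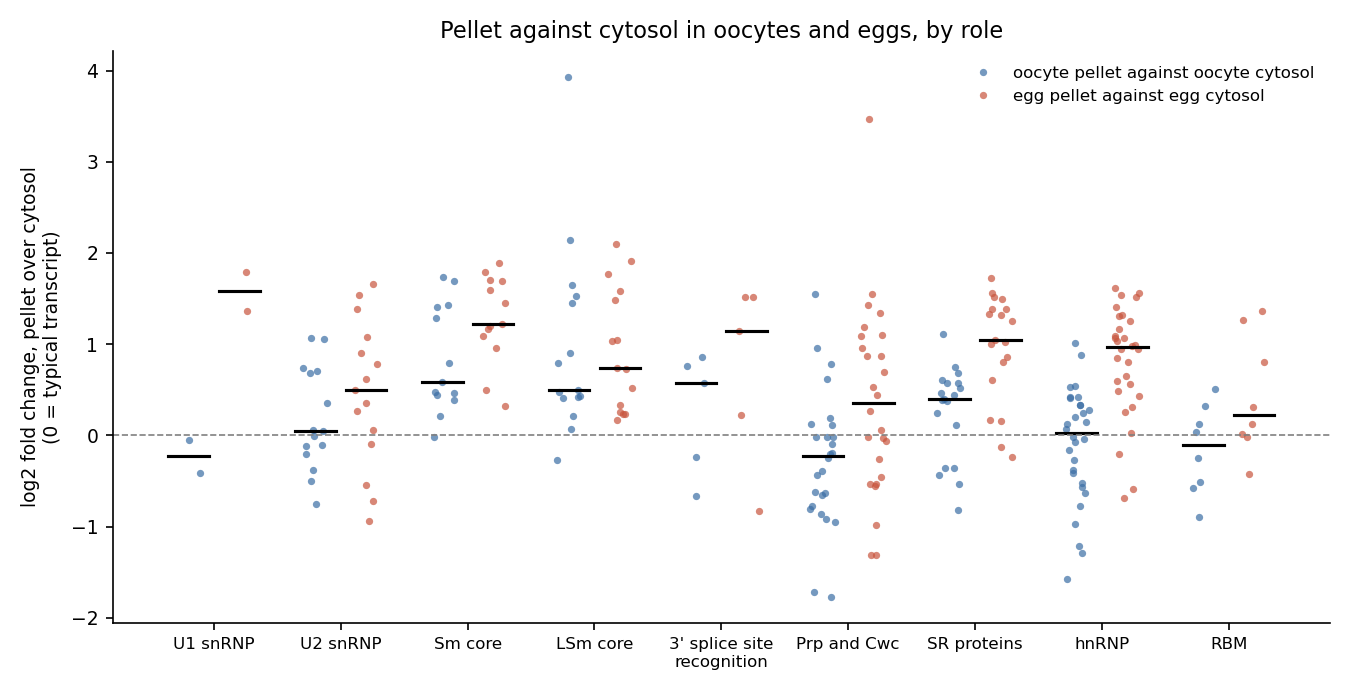
Log2 fold change of pellet over cytosol for every tested member, grouped by role, in oocytes (blue) and eggs (red), with black bars at the medians and 0 at the typical transcript. In eggs the medians of all 9 roles lie above their oocyte medians. The point at 3.47 is cwc22.L, a scarce transcript with a mean log2 CPM of -2.10, named here after its value was seen.

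The U1 proteins showed the shift plainly. The transcript snrpa.S encodes the U1 snRNP A protein, which binds a stem-loop of U1 snRNA. It measured 198.8, 197.5 and 184.9 normalised counts (CPM, scaled to the library total) in oocyte cytosol and 189.4, 186.2 and 185.1 in oocyte pellet. It measured 90.4, 89.5 and 96.5 CPM in egg cytosol and 291.6, 359.2 and 303.8 in egg pellet. In these CPM, cytosol and pellet overlapped in oocytes, whereas every egg pellet library stood above every egg cytosol library. Its egg pellet exceeded egg cytosol by 1.79 ± 0.09 (log2 fold change ± SE, adjusted p = 1.3e-12). Its pellet to cytosol ratio rose by 1.84 ± 0.13 (adjusted p = 1.1e-10), and its pellet share went from 11.6 ± 3.7% to 35.2 ± 10.8% (SD, n = 3). The other U1 row, snrpc.S for the U1 C protein, rose by 1.78 ± 0.13 (adjusted p = 1.2e-10), with a pellet share of 10.03 ± 3.04% in oocytes and 29.5 ± 8.5% in eggs.

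In the U2 particle, snrpb2.S for the U2B″ protein rose by 1.501 ± 0.13 (adjusted p = 3.9e-09) and sf3a3.S by 1.28 ± 0.08 (adjusted p = 3.45e-11). The branch-point clamp subunit sf3b1.S rose by 0.29 ± 0.08 (adjusted p = 0.00399), although on the authors' aM scale its change was -0.03. Other U2 rows went the opposite way. The transcript sf3a2.S, for another SF3A subunit, measured 16.6, 16.7 and 13.1 CPM in oocyte cytosol and 19.9, 17.6 and 22.1 in oocyte pellet. In eggs it measured 26.6, 24.1 and 19.7 CPM in cytosol and 13.0, 11.8 and 11.7 in pellet. Of this pair of fractions, the pellet was the higher in CPM in every oocyte library and the lower in every egg library. The ratio fell by 1.30 on the log2 scale (SE 0.18, adjusted p = 2.2e-06), and the pellet share went from 14.1 ± 6.0 to 6.98 ± 3.51%. The small SF3B subunit sf3b5.S fell by 1.0004 (SE 0.20, adjusted p = 0.00021), and sf3b2.L fell by 0.70 (SE 0.12, adjusted p = 4.9e-05).

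Oocyte pellet exceeded oocyte cytosol for 11 of 13 Sm rows, where 35.6% of all transcripts did so, and none was lower. Egg pellet exceeded egg cytosol for all 13, where 34.4% of all transcripts did so, with snrpd3.L highest among them at 1.89 ± 0.13 (adjusted p = 2.9e-11). This transcript measured 67.7, 83.0 and 65.8 CPM in egg cytosol and 271.2, 286.7 and 244.4 in egg pellet, which did not overlap. The pellet to cytosol ratio rose by 1.33 ± 0.13 for snrpd3.S (adjusted p = 1.6e-08) and by 1.24 ± 0.15 for snrpb.L (adjusted p = 3.5e-07). It fell by 0.93 for snrpe.S (SE 0.11, adjusted p = 2.6e-07) and by 0.74 for snrpg.S (SE 0.18, adjusted p = 0.0019), whose proteins sit in the same ring.

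Among LSm transcripts, lsm8.L rose by 1.35 ± 0.17 (adjusted p = 8.05e-07). LSm8 is the subunit that marks the nuclear U6 ring, whereas LSm1 takes its place in the cytoplasmic decay ring. The most pellet-bound member of all in oocytes was lsm4.S, the member classed vegetal. It measured 2.41, 1.69 and 1.71 CPM in oocyte cytosol against 27.9, 29.6 and 31.5 in oocyte pellet, a difference of 3.93 ± 0.15 (adjusted p = 2.4e-15). In eggs it measured 3.11, 3.71 and 3.32 CPM in cytosol against 13.4, 14.4 and 15.3 in pellet, a difference of 2.09 ± 0.14 (adjusted p = 2.7e-11). In these CPM the pellet stood above the cytosol at both stages, but the egg pellet libraries all lay below the oocyte ones. On the authors' aM scale the egg difference changed sign. The pellet to cytosol ratio of lsm4.S fell by 1.84 (SE 0.20, adjusted p = 1.1e-07), and the pellet share went from 66.2 ± 8.0 to 37.1 ± 14.1%.

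**Figure D3:**
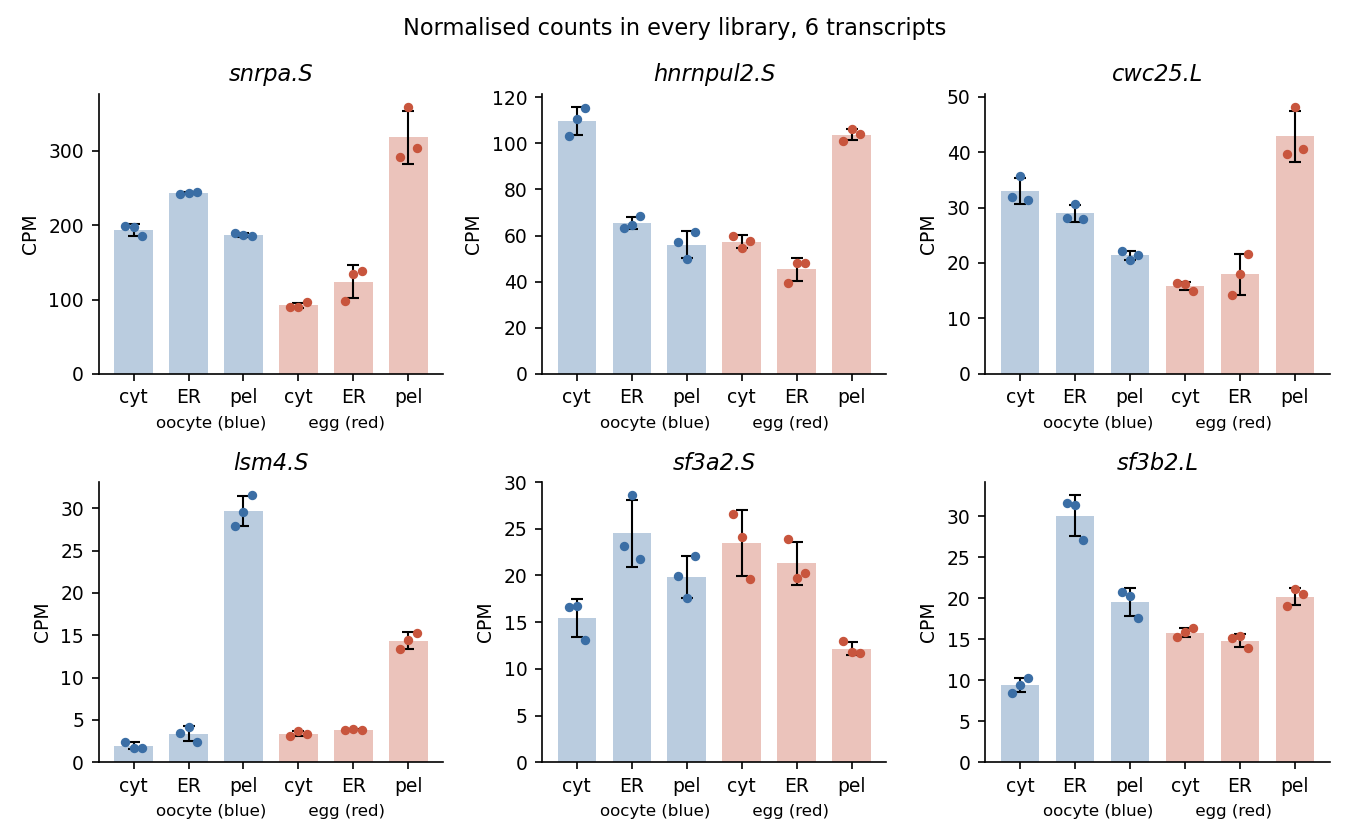
CPM of 6 members in every library (points), with the mean (bars) and SD of 3 libraries, by fraction (cyt, cytosol; pel, pellet) in oocytes (blue) and eggs (red). These CPM are relative to the typical transcript. For snrpa.S, hnrnpul2.S and cwc25.L the egg pellet is the highest egg fraction on this scale. For lsm4.S the pellet level falls at maturation, for sf3a2.S the egg pellet is the lowest, and sf3b2.L loses its lead in the ER.

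Among 3′ splice site factors, u2af2.S, for the large U2AF subunit that binds the polypyrimidine tract, rose in the pellet to cytosol ratio by 0.58 ± 0.10 (adjusted p = 7.5e-05). The branch-point binding protein transcript sf1.S rose by 0.89 ± 0.09 (adjusted p = 3.7e-08). Of the Prp and Cwc rows, cwc25, whose yeast counterpart acts at the first catalytic step, changed strongly in both copies. The L copy measured 31.8, 35.6 and 31.3 CPM in oocyte cytosol and 22.2, 20.5 and 21.4 in oocyte pellet. In eggs it measured 16.4, 16.2 and 15.0 CPM in cytosol and 39.8, 48.2 and 40.6 in pellet. On this scale, relative to the typical transcript, the order of the fractions was inverted in all 3 libraries. Its egg pellet share exceeded the oocyte one by 26.3, 17.5 and 11.9 percentage points when libraries numbered 1, 2 and 3 were set side by side. The numbers are not known to link oocyte and egg libraries, so these are not changes followed in the same cells. On the spike-in scale 0 members were called above cytosol in egg pellet. The pellet to cytosol ratio rose by 2.06 ± 0.15 for cwc25.L (adjusted p = 1.3e-10) and by 1.88 ± 0.14 for cwc25.S (adjusted p = 1.7e-10). The tri-snRNP component prpf31.S rose by 1.77 ± 0.10 (adjusted p = 2.6e-12), and prpf8.S, the scaffold of the catalytic centre, by 0.75 ± 0.10 (adjusted p = 3.1e-06). One of the 2 that fell was cwc27.S, a peptidyl-prolyl isomerase family member, at -0.79 ± 0.09 (adjusted p = 3.0e-07).

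SR transcripts that rose included srsf11.S at 1.21 ± 0.09 (adjusted p = 2.6e-10), srsf1.L at 1.08 ± 0.12 (adjusted p = 1.5e-07) and srsf3.S at 0.98 ± 0.13 (adjusted p = 2.1e-06). The copies of srsf6 parted: srsf6.S rose by 1.11 ± 0.15 (adjusted p = 1.6e-06), and srsf6.L fell by 0.60 (SE 0.07, adjusted p = 3.9e-07). In egg pellet srsf6.L measured 145.4, 141.1 and 142.7 CPM, below the 156.1, 168.4 and 163.8 of oocyte pellet. The S copy instead stood at 92.2, 92.7 and 94.8 CPM in egg pellet, above the 66.4, 78.5 and 75.8 of oocyte pellet.

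Among the hnRNPs named here, hnrnpul2.S rose most, by 1.82 ± 0.11 (adjusted p = 6.2e-12). It measured 103.4, 110.4 and 115.5 CPM in oocyte cytosol and 57.0, 49.7 and 61.5 in oocyte pellet, and 59.9, 54.6 and 57.7 in egg cytosol and 101.2, 106.1 and 103.9 in egg pellet. In these CPM, relative to the typical transcript, the pellet was the lower of these fractions in every oocyte library and the higher in every egg library. The scaffold-attachment protein transcript hnrnpu rose by 1.52 ± 0.09 (adjusted p = 4.9e-12), with a pellet share of 7.29 ± 3.28% in oocytes and 17.3 ± 7.7% in eggs. Also rising were hnrnpa2b1.S by 1.23 ± 0.13 (adjusted p = 3.9e-08), hnrnpk.L by 1.14 ± 0.12 (adjusted p = 4.3e-08) and hnrnpa1 by 0.97 ± 0.12 (adjusted p = 7.6e-07). The 3 hnRNP rows that were not called were hnrnpm.L at 0.02, hnrnpr.L at 0.21 and the scarce hnrnpa3.L at -0.58 ± 0.28 (adjusted p = 0.095), named after their values were seen. In the RBM group, rbm25.L rose by 1.06 ± 0.12 (adjusted p = 2.3e-07) and rbm8a.S, which encodes the exon junction complex subunit Y14, by 0.76 ± 0.14 (adjusted p = 7.95e-05).

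Comparing each fraction between stages, pellet levels were higher in eggs for 91 members, where 22.3% of all transcripts were higher, and lower for 13, where 21.4% were lower. The rises included cwc25.S at 1.02 ± 0.10 (adjusted p = 1.9e-08), snrpc.S at 1.01 ± 0.09 (adjusted p = 7.5e-09), cwc25.L at 1.00 ± 0.10 (adjusted p = 6.4e-08), hnrnpc.L at 0.99 ± 0.08 (adjusted p = 1.1e-09) and hnrnpu at 0.90 ± 0.06 (adjusted p = 2.6e-10). The falls included lsm4.S at -1.05 ± 0.12 (adjusted p = 3.1e-07), sf3b5.S at -0.73 ± 0.14 (adjusted p = 0.00015), sf3a2.S at -0.70 ± 0.13 (adjusted p = 1.0e-04), cwc27.S at -0.54 ± 0.07 (adjusted p = 1.0e-06) and srsf6.L at -0.19 ± 0.05 (adjusted p = 0.0046). On the spike-in scale 20 members were higher and 2 lower in egg pellet, where 1417 and 1230 of all transcripts were. With limma on aM values 11 were higher and 0 lower, where 583 and 457 of all transcripts were.

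Cytosol levels moved in the other direction relative to the typical transcript. They were lower in eggs for 74 members, where 18.6% of all transcripts were lower, and higher for 11, where 18.4% were higher. No hnRNP row was higher and 25 of 30 were lower. The largest falls among the named members were snrpa.S at -1.07 ± 0.09 (adjusted p = 5.0e-09), cwc25.L at -1.06 ± 0.10 (adjusted p = 4.2e-08), srsf4.L at -1.04 ± 0.11 (adjusted p = 1.5e-07) and hnrnpa2b1.S at -0.99 ± 0.09 (adjusted p = 1.4e-08). For the median member the fall was relative. On the spike-in scale the median of all transcripts rose by 0.24 and that of members stood at -0.01. On that scale 7 members were higher and 6 lower, where 10.1% and 2.45% of all transcripts were. In the authors' aM values snrpa.S, cwc25.L, srsf4.L and hnrnpa2b1.S were also lower, with egg to oocyte cytosol ratios of 0.60, 0.67, 0.66 and 0.66. The authors' q-values for these ratios were above 0.05. The rises included lsm2.S (gene35057) at 1.42 ± 0.13 (adjusted p = 1.1e-08), sf3b2.L at 0.75 ± 0.09 (adjusted p = 5.1e-07), snrpe.S at 0.71 ± 0.08 (adjusted p = 2.5e-07), sf3a2.S at 0.60 ± 0.12 (adjusted p = 0.00049) and srsf6.L at 0.41 ± 0.05 (adjusted p = 1.1e-06). These 5 fell in the pellet to cytosol ratio. The 2 sets of values share the same cytosol libraries.

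ER levels were lower in eggs for 85 members, where 16.1% of all transcripts were lower, and higher for 5, where 12.4% were higher. The median member stood at -0.40. Without oocyte ER replicate 1 or 3, the 5 became 2, and of all transcripts 2737 or 2717 were higher in place of 3218. The strongest falls named here were hnrnpa2b1.S at -1.27 ± 0.09 (adjusted p = 2.5e-09), srsf12.L at -1.24 ± 0.11 (adjusted p = 2.2e-08), sf3b2.L at -1.02 ± 0.09 (adjusted p = 1.6e-08) and srsf1.L at -1.01 ± 0.09 (adjusted p = 2.4e-08). The small rises of hnrnpul1.S, 0.18 ± 0.05 (adjusted p = 0.011), and srsf6.L, 0.16 ± 0.05 (adjusted p = 0.020), became -0.53 and -0.55 on the spike-in scale, where the median of all transcripts was -0.71.

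Within oocytes, ER exceeded cytosol for 59 members, where 24.3% of all transcripts did so, and fell below it for 33, where 24.8% did. The LSm rows lay to the ER side, 13 of 15 higher and none lower, and so did 9 of 13 Sm rows. Prp and Cwc rows lay to the cytosol side, 7 of 26 higher and 14 lower. The short transcript lsm2.S (gene35057), of 403 nt, measured 6.61, 4.24 and 5.74 CPM in oocyte cytosol and 37.8, 43.6 and 37.3 in oocyte ER. That difference was 2.84 ± 0.13 (adjusted p = 6.4e-14), and the ER held 73.4 ± 8.3% of this RNA. Also on the ER side were the SR-related srsf12.L at 1.70 ± 0.11 (adjusted p = 2.8e-11), sf3b2.L at 1.68 ± 0.09 (adjusted p = 1.0e-12), srsf5.L at 1.07 ± 0.10 (adjusted p = 1.1e-08), u2af2.S at 0.96 ± 0.07 (adjusted p = 4.7e-10) and snrpe.S at 0.86 ± 0.08 (adjusted p = 8.6e-09). On the cytosol side were prpf40b.L, related to the U1-associated Prp40 of yeast, at -1.04 ± 0.08 (adjusted p = 7.1e-10), rbm25.S at -0.99 ± 0.07 (adjusted p = 2.6e-10), hnrnpul1.S at -0.94 ± 0.05 (adjusted p = 2.7e-12) and hnrnpu at -0.87 ± 0.06 (adjusted p = 1.5e-10).

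The oocyte pellet exceeded oocyte cytosol for 61 members, where 35.6% of all transcripts did so, and was lower for 41, where 32.6% were. Besides lsm4.S, the pellet side held the Sm transcripts snrpf.L at 1.74 ± 0.13 (adjusted p = 2.0e-10), snrpg.S at 1.69 ± 0.13 (adjusted p = 2.2e-10) and snrpe.S at 1.43 ± 0.08 (adjusted p = 8.5e-13). The cytosol side held prpf40b.L at -1.77 ± 0.09 (adjusted p = 1.0e-13), hnrnpll.L at -1.58 ± 0.08 (adjusted p = 3.1e-13), hnrnpul1.S at -1.29 ± 0.05 (adjusted p = 8.2e-15) and hnrnpu at -1.21 ± 0.06 (adjusted p = 3.3e-13). In eggs the pellet exceeded the cytosol for 102 members, where 34.4% of all transcripts did so, and was lower for 16, where 32.4% were. Of the 41 members on the cytosol side in oocytes, 19 were called on the pellet side in eggs, 14 were called on the cytosol side again and 8 were not called. Of the 8444 transcripts on the cytosol side in oocytes, 17.4% were called on the pellet side in eggs and 63.6% on the cytosol side again. The stages have no libraries in common in these counts. Lowest among the named members in eggs were prpf40b.L at -1.31 ± 0.08 (adjusted p = 1.6e-11), prpf40b.S (gene20024) at -1.31 ± 0.08 (adjusted p = 8.6e-12), cwc27.S at -0.98 ± 0.07 (adjusted p = 4.1e-11) and sf3a2.S at -0.94 ± 0.13 (adjusted p = 9.4e-07).

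Relative to the typical transcript, fewer members were called between ER and cytosol in eggs than in oocytes. The egg ER was higher for 30 members, where 18.4% of all transcripts were higher, and lower for 32, where 21.7% were lower. On the spike-in scale the member median lay further below the cytosol in egg ER, at -1.78, than in oocyte ER, at -0.65. Without egg ER replicate 1 the counts of 30 and 32 became 49 and 21, where 19.4% and 19.2% of all transcripts were called. The LSm rows again lay to the ER side, 13 of 15 higher and none lower, with lsm2.S (gene35057) at 1.13 ± 0.12 (adjusted p = 7.7e-08) and lsm6.L at 0.93 ± 0.10 (adjusted p = 1.8e-07). On the cytosol side were prpf40b.L at -0.70 ± 0.08 (adjusted p = 4.7e-07) and rbm25.S at -0.69 ± 0.07 (adjusted p = 1.2e-07).

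From oocyte to egg the ER to cytosol ratio rose for 14 members, where 12.4% of all transcripts rose, and fell for 27, where 14.7% fell. Leaving out 1 ER or cytosol library changed the 14 in every case. It became 7 to 9 for 9 of these libraries. It was 10 without oocyte cytosol replicate 2, 11 without egg cytosol replicate 2 and 18 without egg ER replicate 1. Of all transcripts, the 3226 that rose became 2755 to 3164 in these fits. The transcript sf3b2.L, for a SF3B subunit, measured 8.48, 9.48 and 10.2 CPM in oocyte cytosol and 31.6, 31.4 and 27.1 in oocyte ER, but 15.3, 15.9 and 16.3 in egg cytosol and 15.1, 15.4 and 13.9 in egg ER. In these CPM, which are relative to the typical transcript, the oocyte separation of the fractions was gone in eggs, where the libraries overlapped. In the authors' aM values the order was reversed, with a cytosol to ER ratio of 0.46 in oocytes and 3.83 in eggs. The ER to cytosol ratio of sf3b2.L fell by 1.77 (SE 0.12, adjusted p = 3.6e-10), that of lsm2.S (gene35057) by 1.71 (SE 0.17, adjusted p = 8.9e-08) and that of srsf12.L by 1.58 (SE 0.15, adjusted p = 6.4e-08). The Sm transcripts snrpg.S and snrpe.S fell by 0.97 (SE 0.19, adjusted p = 0.00049) and 0.96 (SE 0.11, adjusted p = 8.0e-07). Smaller falls were those of sf3b3.L at -0.85 ± 0.08 (adjusted p = 3.9e-08) and u2af2.S at -0.70 ± 0.10 (adjusted p = 1.9e-05). The rises of rbm25.L, 0.63 ± 0.13 (adjusted p = 0.00063), and hnrnpu, 0.59 ± 0.09 (adjusted p = 1.9e-05), turned to -0.32 and -0.37 on the spike-in scale, where the median of all transcripts was -0.97. The pellet to cytosol ratio of lsm2.S (gene35057) also fell, by 1.36 (SE 0.17, adjusted p = 9.7e-07).

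Part of the spread within a stage went with transcript length. Members were shorter than transcripts at large, with a median of 2913 against 4024.5 nt. Across the 133 members, length and the oocyte ER to cytosol fold change had a Spearman rho of -0.59, against -0.28 across all 25938 transcripts. The value was -0.66 in egg ER, against -0.26 for all transcripts, and -0.50 and -0.47 in oocyte and egg pellet, against -0.29 and -0.32. The maturation change of the pellet to cytosol ratio had a rho of -0.06 among members. Among the 67 members up to the median length 48 rose, as did 48 of the 66 longer ones. Of all transcripts split at the same length, 20.2% of the shorter and 25.4% of the longer ones rose. These are descriptions across genes, which share libraries and are not independent replicates.

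**Figure D4:**
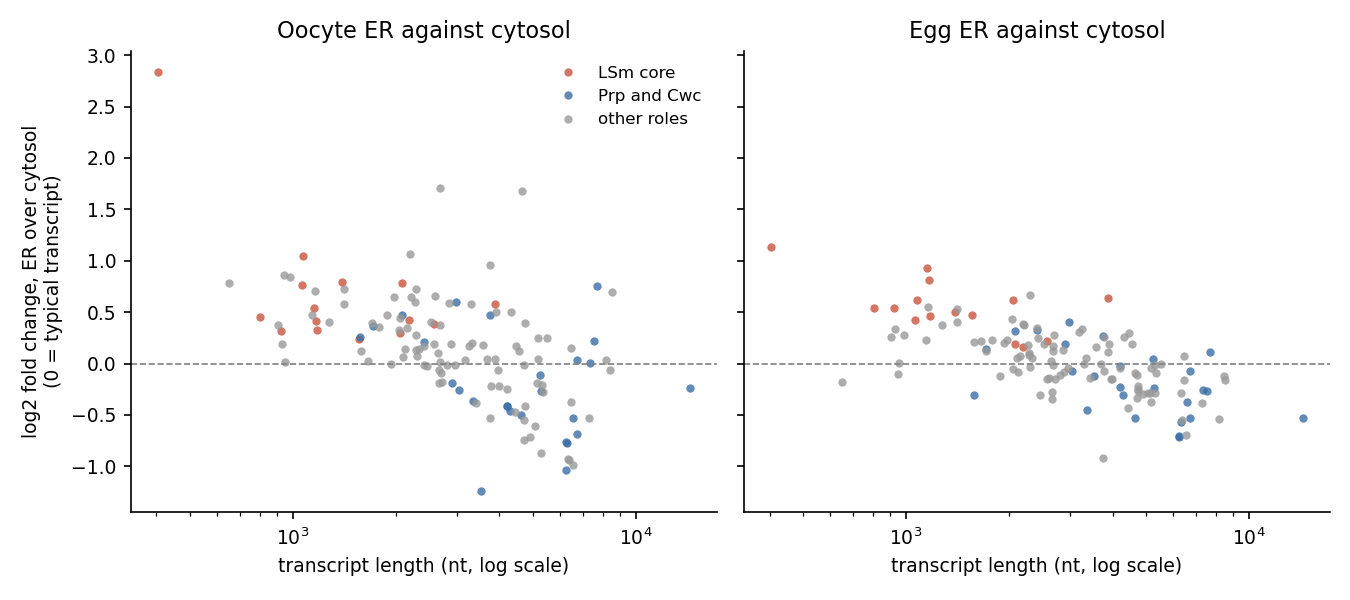
Log2 fold change of ER over cytosol against transcript length (log axis) for the 133 tested members in oocytes (left) and eggs (right), with LSm rows in red and Prp and Cwc rows in blue. Short transcripts lie higher at both stages (Spearman rho -0.59 and -0.66).

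The abundance of members over the whole cell was also compared, from the summed aM of 3 fractions. These sums are shares of a fixed amount, since the authors' values add up to 70656.7 aM in each set of fractions. Egg sums were lower than oocyte sums for 53 of 133 members, where 6.63% of all transcripts were lower, and higher for 6, where 17.9% were higher (limma, adjusted p below 0.05). All members together summed to 998, 1014 and 957 aM in oocytes and 851, 889 and 875 aM in eggs, which did not overlap. The transcript snrpa.S went from 26.7 ± 1.0 to 17.1 ± 0.2 aM, a log2 change of -0.64 ± 0.06 (adjusted p = 4.4e-10). The transcript hnrnpa2b1.S went from 7.48 ± 0.31 to 4.80 ± 0.32 aM, a log2 change of -0.64 ± 0.07 (adjusted p = 3.4e-09). In contrast, srsf6.L went from 4.48 ± 0.05 to 5.68 ± 0.23 aM, a log2 change of 0.34 ± 0.07 (adjusted p = 0.00018). With TPM over spike-in TPM in place of aM, none was called higher, where 2.48% of all transcripts were, and 39 lower, where 6.77% were. Without egg replicate 1 or 2, the 6 became 11 or 3, and the 17.9% of all transcripts became 31.1% or 10.9%.

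L and S copies were compared for the 43 symbols in which both copies had a mean of at least 1 TPM. Their log2 ratio of L to S differed between oocyte ER and cytosol in 24 of 43 pairs, against 56.1% of 3693 pairs tested over the series (limma). It differed between oocyte pellet and cytosol in 31, against 68%, between egg pellet and cytosol in 33, against 65.9%, and between egg and oocyte cytosol in 21, against 45.7%. Apart from the egg pellet, these counts lie near the share of all pairs. The larger egg pellet count was not tested against that share. For snrpe, L stood above S in oocyte cytosol, with a log2 ratio of 0.32 ± 0.10 (SD, n = 3), and below it in egg cytosol, at -1.07 ± 0.07. That difference was -1.39 ± 0.07 (SE, adjusted p = 2.1e-10). Between pellet and cytosol the snrpe ratio differed by -1.03 ± 0.07 in oocytes (adjusted p = 1.4e-09) and by 1.09 ± 0.07 in eggs (adjusted p = 2.2e-09), values named here after they were seen. For srsf6 the egg pellet differed from egg cytosol by -1.56 ± 0.11 (adjusted p = 8.3e-09), and egg from oocyte cytosol by 1.18 ± 0.11 (adjusted p = 3.3e-07). The oocyte ER differed from cytosol by 1.64 ± 0.10 for sf3b2 (adjusted p = 8.0e-10), with its L copy the more ER-bound, by -0.98 ± 0.14 for snrpg (adjusted p = 1.5e-05) and by 0.73 ± 0.06 for sf3b3 (adjusted p = 3.7e-08).

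The oocyte pellet differed from cytosol by -1.82 ± 0.21 for lsm4 (adjusted p = 1.4e-06), by -1.72 ± 0.14 for snrpg (adjusted p = 1.6e-08) and by 1.31 ± 0.13 for srsf10 (adjusted p = 1.9e-07). In eggs the pellet differed from cytosol by -1.34 ± 0.21 for lsm4 (adjusted p = 4.7e-05) and by 1.204 ± 0.09 for rbm25 (adjusted p = 1.3e-08). Between egg and oocyte cytosol hnrnpa3 differed by 1.09 ± 0.18 (adjusted p = 0.00013). Reads shared by near-identical copies could be divided unevenly by the authors' counting, which limits these ratios.

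**Figure D5:**
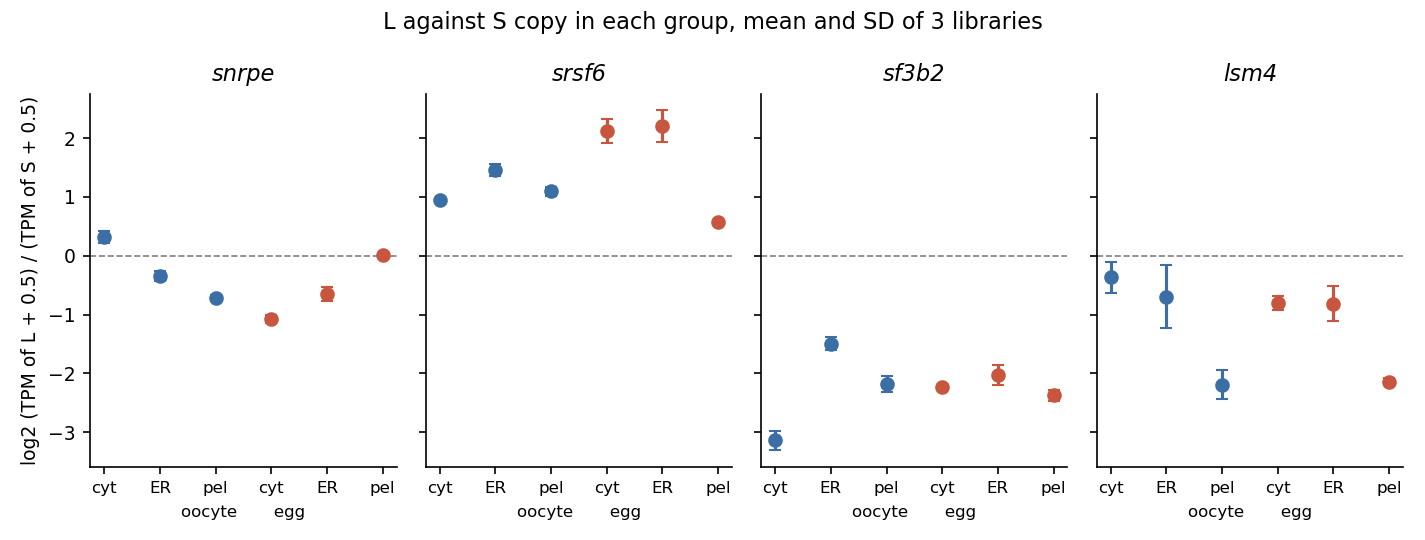
Log2 ratio of L to S copy, as (TPM + 0.5), in each fraction and stage for snrpe, srsf6, sf3b2 and lsm4, as mean and SD of 3 libraries. For snrpe the cytosol ratio changes sign from oocyte to egg, and for sf3b2 the oocyte ER lies above oocyte cytosol.

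Other genes of the pathway, which are no members, were counted from lists compiled by symbol, and are read against the 23.7% of all transcripts that rose and the 23.4% that fell. Of 67 tested rows for other spliceosome proteins, 33 rose and 15 fell in the pellet to cytosol ratio at maturation, with a median of 0.26. Among 42 rows for alternative splicing regulators outside the SR and hnRNP names, 21 rose and 8 fell, with a median of 0.42. The share of other spliceosome rows that fell, 22.4%, was near that of all transcripts. The 12 rows for SR protein kinases gave 4 that rose and 1 that fell. Of 25 rows for snRNP assembly and import, 6 rose, a share of 24% that is near that of all transcripts, and 14 fell, a share of 56%, with a median of -0.27. Those that fell included tgs1.S, which encodes the snRNA cap hypermethylase, at -1.72 ± 0.11 (adjusted p = 4.1e-11), and the SMN complex subunits gemin4.L at -1.05 ± 0.09 (adjusted p = 2.9e-09) and gemin5.L at -0.94 ± 0.09 (adjusted p = 2.2e-08). The Sm methyltransferase prmt5.L stood at -0.72 ± 0.11 (adjusted p = 7.4e-06). These 4 were named after their values were seen.

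In the authors' deposited table of aM ratios, with its q-values below 0.05, the ER ratio of egg to oocyte was below 1 for 104 of 135 members, where 27.4% of all rows were, and above 1 for none, where 0.348% were. For cytosol, the authors' deposited table gave 8 members above 1, where 7.7% of rows were, and none below, where 0.91% were. The ratio of cytosol to ER in eggs was above 1 for 129 of 134 members in the authors' deposited table, where 57.2% of rows were. In oocytes the authors' deposited table gave 63 members above 1, where 33.3% of rows were, and 4 below, where 2.83% were. The pellet was not compared there. These shares cover 37099 to 37906 rows, more than the 25938 transcripts tested here. With limma on aM values, oocyte ER was below cytosol for 41 of 133 members and 8610 of the 25938. The members' excess in oocytes was absent with this test over these transcripts. Both the test and the rows differ from those of the authors' table, so which of them removed the excess was not tested. Egg ER was below cytosol for 132 members and 23990 of the 25938.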

How the data were processed

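Per the labels' protocols, ribosomal RNA was removed, stranded libraries were sequenced on 1 NovaSeq lane, and RNAs of 5 spike-ins were added to each fraction. Per the submitters' processing notes, bcl2fastq 2.20 and kallisto 0.46.2 were used; the transcript set and build are not given in the sources used here. The authors deposited estimated counts and TPM per transcript and library. The authors also deposited attomolar values (made by regression on the spike-ins), percent shares of the fractions, fold ratios and q-values. The deposited percent shares combine libraries of a stage with the same number. Uncertain library pairing of fractions limits the percent shares and sums. In the series tables, 22 columns were not used.

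Estimated counts were rounded, spike-in rows set aside, and rows filtered with filterByExpr. One edgeR 4.0.16 quasi-likelihood fit (R 4.3.3, TMM scaling, 6 group means, 12 residual degrees of freedom) gave 9 comparisons, 2 of them interactions, with Benjamini-Hochberg adjustment over all 25938 transcripts and a threshold of 0.05. L to S ratios, log2 of (TPM + 0.5), and log2 of summed aM + 0.01 were tested with limma 3.58.1; the summed comparison was added after the data were seen. DESeq2 1.42.0, spike-in scaling, limma on log2 of aM + 0.01, no filter, a replicate block and left-out libraries were the alternatives. Shares are described and were not tested. The fits were tested on simulated data. Deviations from group means of same-numbered libraries correlated above 0.1 in all 3 pairs of oocyte ER with cytosol, of egg pellet with cytosol and of egg ER with egg pellet. They did not in all pairs of the other fraction combinations within a stage. The labels do not say that a number marks shared cells, so the main fit and its p-values use no pairing. A block within each stage was added as an alternative after the data were seen.

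The members, roles, marker lists and pathway lists were chosen with earlier results of these data known. Named members are the 5 highest and 5 lowest called per comparison with a mean log2 CPM of at least 3, the 2 smallest adjusted p per role and direction, the 3 largest L to S differences per comparison, and a panel of core factors; the choice among these for printing was made with the values in view.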

Additional observations from a re-analysis of the deposited data

Results flagged for a closer look

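The effect of a fraction differed between stages, by the interaction test, in part of the 133 tested members. In the pellet to cytosol ratio 96 rose and 14 fell, where 23.7% and 23.4% of all transcripts did so. In the ER to cytosol ratio 14 rose and 27 fell, where 12.4% and 14.7% of all transcripts did so. The 14 rises in the ER ratio are therefore no excess of members. As changes of the pellet to cytosol ratio from oocyte to egg (log2 fold change), the interaction was called with a rise for cwc25.L 2.06, cwc25.S 1.88, snrpa.S 1.84, hnrnpul2.S 1.82, snrpc.S 1.78, prpf31.S 1.77, hnrnpu 1.52, snrpb2.S 1.501, sf3a3.S 1.28, sf3b1.S 0.29, snrpd3.S 1.33, snrpb.L 1.24, u2af2.S 0.58, sf1.S 0.89, prpf8.S 0.75, srsf11.S 1.21, srsf1.L 1.08, srsf3.S 0.98, srsf6.S 1.11, lsm8.L 1.35, hnrnpa2b1.S 1.23, hnrnpk.L 1.14, hnrnpa1 0.97, rbm25.L 1.06 and rbm8a.S 0.76. It was called with a fall for srsf6.L -0.60, lsm4.S -1.84, lsm2.S (gene35057) -1.36, sf3a2.S -1.30, sf3b5.S -1.0004, snrpe.S -0.93, snrpg.S -0.74, sf3b2.L -0.70 and cwc27.S -0.79. As changes of the ER to cytosol ratio it was called for sf3b2.L -1.77, lsm2.S (gene35057) -1.71, srsf12.L -1.58, snrpg.S -0.97, snrpe.S -0.96, sf3b3.L -0.85, u2af2.S -0.70, rbm25.L 0.63 and hnrnpu 0.59. Sm and LSm members stand on both sides of the pellet list, and lsm2.S (gene35057), snrpe.S, snrpg.S and sf3b2.L fell in both ratios, which share the cytosol libraries. Named here are the members printed in the results above, not all that were called.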

How the results depend on the processing

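Scaling decided the direction of values that compare fractions. Under spike-in scaling, members called higher and lower were 3 and 81 in oocyte ER against cytosol, 1 and 122 in oocyte pellet, 0 and 132 in egg ER, 0 and 110 in egg pellet, 7 and 6 in egg against oocyte cytosol, 20 and 2 in pellet between stages, 0 and 108 in the ER to cytosol change and 30 and 9 in the pellet to cytosol change, and 0 were higher in ER between stages. Of all 25938 transcripts, those called higher and lower were 663 and 15648 in oocyte ER and 1010 and 21489 in oocyte pellet. They were 140 and 24034 in egg ER and 829 and 22629 in egg pellet. Between stages they were 2629 and 636 in cytosol and 1417 and 1230 in pellet, and 205 were higher in ER. The ER to cytosol change gave 128 and 14862, and the pellet to cytosol change 1465 and 3205. With limma on aM values, 3 were higher in oocyte ER, 1 higher and 123 lower in oocyte pellet, 0 and 132 in egg ER, 0 and 125 in egg pellet, none (0) lower in cytosol between stages, 0 higher in ER between stages, 11 and 0 in pellet between stages, 0 and 100 in the ER to cytosol change and 12 and 7 in the pellet to cytosol change. Among all 25938 transcripts, 684 were higher in oocyte ER. Higher and lower were 761 and 21586 in oocyte pellet, 116 and 23990 in egg ER, and 518 and 23762 in egg pellet. Between stages, 328 were lower in cytosol, 130 higher in ER, and 583 higher and 457 lower in pellet. The ER to cytosol change gave 92 and 15495, and the pellet to cytosol change 676 and 3546. Spike-in scaling turned the member median to -0.65 in oocyte ER, -1.61 in oocyte pellet, -1.78 in egg ER and -1.09 in egg pellet, each against cytosol. It turned snrpf.L to -0.025, snrpg.S to -0.066 and snrpe.S to -0.32 in oocyte pellet, lsm2.S (gene35057) to -0.65 and lsm6.L to -0.84 in egg ER, and snrpd3.L to -0.061 and snrpa.S to -0.21 in egg pellet. It also turned hnrnpul1.S to -0.53 and srsf6.L to -0.55 in ER between stages, and rbm25.L to -0.32 and hnrnpu to -0.37 in the ER to cytosol change. The aM values turned these medians to -0.50, -1.85, -1.75 and -1.44, and the cytosol median between stages to 0.14. They turned snrpf.L to -0.22, snrpg.S to -0.28 and snrpe.S to -0.56 in oocyte pellet, lsm2.S (gene35057) to -0.63 and lsm6.L to -0.85 in egg ER, lsm4.S to -0.38, snrpd3.L to -0.28 and snrpa.S to -0.44 in egg pellet, hnrnpul1.S to -0.51 and srsf6.L to -0.53 in ER between stages, rbm25.L to -0.49 and hnrnpu to -0.48 in the ER to cytosol change, and sf3b1.S to -0.0265 in the pellet to cytosol change. These reversals move with the median of all transcripts, which each scale shifts. A further 55 values of single members kept their direction but lost the call, nearly all on these 2 scales. In the pellet to cytosol change hnrnpa3.L was called lower with no filter (-0.56) and without oocyte cytosol replicate 2 (-0.80) or oocyte pellet replicate 2 (-0.74). Leaving out 1 library gave 20 to 49 higher and 21 to 38 lower in egg ER against cytosol, 2 to 5 higher in ER between stages, 7 to 18 higher in the ER to cytosol change (7 to 9 without oocyte cytosol replicate 1 or 3, oocyte ER replicate 1, 2 or 3, egg cytosol replicate 1 or 3, or egg ER replicate 2 or 3), and 96 to 97 higher and 14 to 15 lower in the pellet to cytosol change. The 49 and 21 are without egg ER replicate 1, and the 2 higher in ER between stages without oocyte ER replicate 1 or 3. In the same fits, 4055 to 5140 of all transcripts were higher and 4992 to 5203 lower in egg ER. Between stages in ER, 2598 to 3066 were higher. The ER to cytosol change gave 2755 to 3164 higher. The pellet to cytosol change gave 5850 to 6071 higher and 5737 to 6050 lower. The near-zero member median ran from -0.040 to 0.11 in egg ER, with the lowest without egg ER replicate 3 and the highest without egg ER replicate 1, and was below 0 also without egg cytosol replicate 2. In the ER to cytosol change it ran from -0.14 to 0.0077, above 0 only without egg ER replicate 1. For summed aM, 0 members were higher with TPM over spike-in TPM, and 3 to 11 when 1 egg replicate was left out (11 without replicate 1 and 3 without replicate 2). Of all transcripts, 642 were higher with TPM over spike-in TPM, 8063 without egg replicate 1 and 2839 without egg replicate 2. With replicate numbers as a block the pellet to cytosol change again gave 96 and 14, oocyte pellet 64 and 42, and cytosol between stages 12 and 81. For all transcripts these counts were 6332 and 6266, 9353 and 8552, and 5001 and 5088. Deviations of same-numbered libraries correlated at 0.005 to 0.632 within a stage (median 0.21, 14 of 18 pairs above 0.1) and at -0.186 to 0.267 across stages. For different numbers within a stage the median was -0.09. Deviations from a group mean cancel out within the group, so that value is tied to the same-number ones and is no separate comparison. A replicate block within each stage gave 61 and 34 members higher and lower in oocyte ER and 65 and 42 in oocyte pellet. They were 36 and 36 in egg ER and 104 and 16 in egg pellet. The ER to cytosol change gave 18 and 34, the pellet to cytosol change 96 and 14, and no named member lost its call. Of all transcripts, 6773 and 6848 were higher and lower in oocyte ER and 9547 and 8702 in oocyte pellet. In egg ER 5275 and 6088 were, and in egg pellet 9171 and 8683. The ER to cytosol change gave 3722 and 4337 of all transcripts, and the pellet to cytosol change 6561 and 6473. DESeq2, no filter on low counts and both blocks kept every count within 1.5 times. The oocyte and egg values of cwc22.L rest on few counts, and it was not tested without the pellet libraries numbered 1.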
